A study of Homo sapiens with 60 samples.

Results

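The 38 genes described here encode the folding machinery of the endoplasmic reticulum (ER), the degradation pathway attached to it and the sensors of the unfolded protein response (UPR). They were taken by name from a table of 60675 genes counted in HepG2 cells, an established human liver cancer line (hepatocellular carcinoma). Of the 38 genes, 37 had enough reads to be tested, and DERL3, a derlin of the degradation pathway, had 0 to 3 counts in each of the 54 libraries with replicates and was left out of every test. At the High against the Low dose of a Poria extract 26 of the 37 genes were higher and 2 lower. Of all genes tested, 20% were higher and 18.4% lower. At the High against the Low dose of a Glycyrrhiza extract 14 were higher and 13 lower, where 28.4% of all genes were higher and 27.8% lower. The sensor ERN1 and 8 of 11 tested degradation genes were higher there, while HSPA5, CALR and 4 of 7 disulfide exchange genes were lower. At Medium against Low of Glycyrrhiza 0 genes were higher and 1 was lower, against 3.56% of all genes called.

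The cells had been kept for 24 h with vehicle or with a plant extract at 500 (High), 100 (Medium) or 20 (Low) µg/mL. Water was used to extract the herbal formulas Sibjeondaebo-tang (called SDT) and Palmul-tang (called PMT), whose samples carry the set code 8. Extracts in 70% ethanol came from Poria Cocos (Poria) and from Atractylodis Rhizoma, both with set code 9. Those of Glycyrrhizae Radix (Glycyrrhiza, the root of licorice) and of Panax Ginseng carry code 10, and those of Angelicae Gigantis Radix and of Paeoniae Radix (Angelica and Paeonia) carry code 11. The vehicle group had 3 libraries, PMT had 2 per dose, Angelica and Paeonia had 1 per dose, and the other extracts had 3 per dose, giving 60 libraries in 25 groups. Vehicle is 0.1% DMSO in the sample labels and 2% in the series text, and how much DMSO the treated cultures held is not given in the sources used here. Every sample title, of vehicle and extract alike, carries the label BatchC. The vehicle samples have their own set code, C1, so vehicle and extract never share a code, and what the code marks is not given either. For this reason High was compared with Low within an extract first, and vehicle second.

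Proteins that enter the secretory pathway fold in the ER with the help of the HSP70-type chaperone HSPA5 (BiP), the HSP90-type chaperone HSP90B1, the lectins calnexin and calreticulin and a family of protein disulfide isomerases. Hepatocytes secrete large amounts of plasma protein and depend on this machinery. When unfolded protein accumulates, the sensors ERN1 (IRE1 alpha), ATF6 and EIF2AK3 (PERK) are activated. ERN1 splices the XBP1 messenger RNA into the form that encodes an active transcription factor, ATF6 is cut to release another, and PERK slows translation and favours that of ATF4. XBP1 and ATF6 then raise chaperone and ER-associated degradation (ERAD) genes through short promoter elements. The counts are per gene, so the spliced and unspliced forms of XBP1 were not separated, and neither cleavage of ATF6 nor phosphorylation of any sensor was measured.

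The promoter elements of this response are shown first, before the changes of the genes that carry them. RefSeq promoter windows (GRCh38.p14, 250 bases before to 50 bases after the transcript start, first window listed for a gene) matched 34 of the 38 members; DERL1, PDIA3, DERL3 and SEC24D had no entry. The windows were searched on both strands for the ER stress element (CCAAT, any 9 bases, then CCACG), for its second form (ATTGG, any 1 base, then CCACG) and for the UPR element TGACGTGG. The ER stress element was found in the windows of 7 of 34 members (20.6%) and of 22 of all 27305 genes with a window (0.0806%). The second form was found in 3 of 34 members (8.82%) against 15 of all windows (0.0549%), and the UPR element in 2 of 34 (5.88%) against 217 (0.795%). Each match is written below 5′ to 3′ in the orientation of the motif, with up to 12 bases of flank in lower case and the matched motif in capitals.

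HSPA5, ER stress element, gene strand, window chr9:125241294-125241593: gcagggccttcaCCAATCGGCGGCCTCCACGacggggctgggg
XBP1, ER stress element, gene strand, window chr22:28800520-28800819: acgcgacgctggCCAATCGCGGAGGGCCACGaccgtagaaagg
HSP90B1, first ER stress element, gene strand, window chr12:103930160-103930459: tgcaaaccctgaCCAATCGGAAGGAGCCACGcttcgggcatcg
HSP90B1, nearer ER stress element, opposite strand: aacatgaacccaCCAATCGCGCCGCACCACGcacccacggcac
CALR, ER stress element, opposite strand, window chr19:12938359-12938658: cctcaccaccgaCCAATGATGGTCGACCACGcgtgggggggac
CANX, ER stress element, gene strand, window chr5:179698679-179698978: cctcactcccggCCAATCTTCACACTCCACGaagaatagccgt
CRELD2, ER stress element, opposite strand, window chr22:49918384-49918683: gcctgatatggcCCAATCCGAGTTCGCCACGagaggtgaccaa
ERO1B, ER stress element, opposite strand, window chr1:236281909-236282208: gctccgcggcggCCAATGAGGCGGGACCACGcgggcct
HERPUD1, second form, gene strand, window chr16:56931892-56932191: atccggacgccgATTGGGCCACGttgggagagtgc
SDF2L1, second form, opposite strand, window chr22:21642052-21642351: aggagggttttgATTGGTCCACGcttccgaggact
HYOU1, second form farther from the start, opposite strand, window chr11:119057156-119057455: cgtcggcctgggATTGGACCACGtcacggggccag
HYOU1, second form nearer the start, opposite strand: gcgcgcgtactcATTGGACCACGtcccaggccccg
HYOU1, UPR element, gene strand, overlapping the farther second form: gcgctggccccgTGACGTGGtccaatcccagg
DNAJC10, UPR element, opposite strand, window chr2:182716007-182716306: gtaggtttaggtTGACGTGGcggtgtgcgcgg

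HSP90B1 held 2 copies of the ER stress element and HYOU1 held 2 copies of the second form, and every other match was a single copy. The match in XBP1 lay 52 to 34 bases before the start and that in HSPA5 66 to 48 bases before it. The remaining 23 members with a window held none of the 3 motifs in these exact letters. A match is a description of the letters and not evidence of binding, and its absence says only that these letters are not in this window.

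**Figure D1:**
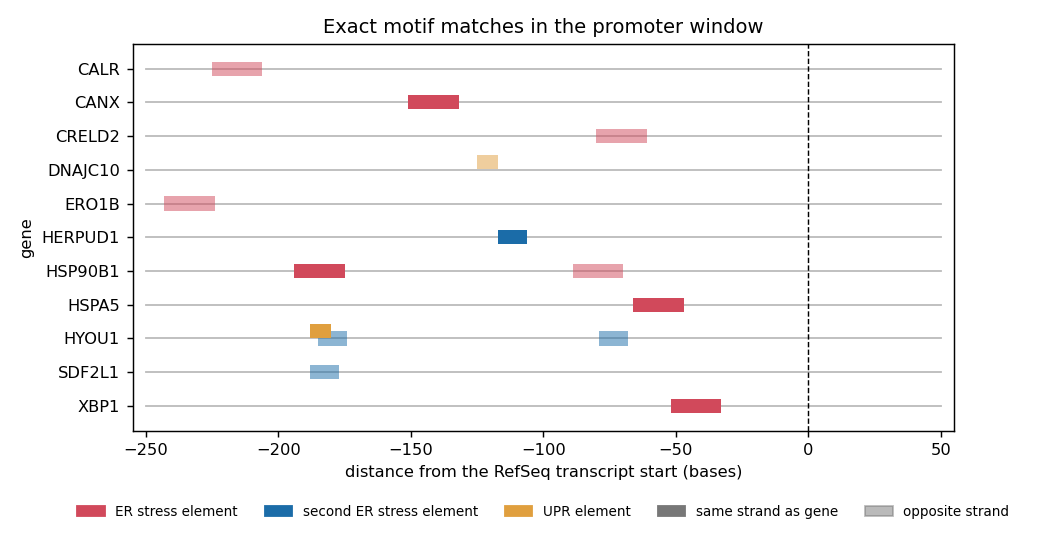
Position of each exact motif match (coloured bars) in the promoter windows of the 11 members that hold a match, in bases from the RefSeq transcript start (dashed line); pale bars lie on the strand opposite to the gene. All matches lie before the start, and HSP90B1 and HYOU1 carry more than 1.

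The libraries held 19057230 to 33233215 assigned counts. Levels are CPM, the counts of a gene relative to the library size after TMM scaling, and a gene is called changed where edgeR's quasi-likelihood test gave a Benjamini-Hochberg adjusted p under 0.05 over the 16284 genes kept. The labels do not say whether replicates came from separate cultures, so the p-values measure the spread between these samples, which may be technical. The cells carried hepatocyte transcripts as labelled, with ALB at 6810 to 11600 CPM and AFP at 7150 to 14900 CPM. Of the leukocyte markers PTPRC was 0 in all 60 libraries, while LYZ was at 815 to 2090 CPM; Of the 7 genes of the fibroblast list, COL1A2 and DCN were 0 in 59 libraries, COL1A1 was at 0 to 0.665 CPM and PDGFRB, which made up most of the list's level, was at 2.32 to 17.6 CPM. The mitochondrial share of counts was 13.4 to 15.2% in vehicle and reached 24.8% in a PMT High library.

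Per kilobase of exon, the vehicle libraries carried most CALR (394 CPM per kb), followed by P4HB (293), HSPA5 (240) and HSP90B1 (216). The sensors were scarce on the same scale, with ATF6 at 5.25 and ERN1 at 1.27 CPM per kb, while XBP1 stood at 125. ERO1B (0.665 CPM per kb) was the least abundant of the 37 tested members. Over the 19 groups with replicates, the highest group mean exceeded the lowest most for ERN1 (2.97 times, highest in Glycyrrhiza High) and DNAJB9 (2.96 times, also Glycyrrhiza High). EDEM3 (2.29 times), ERO1A (2.02 times, highest in Poria High) and DNAJC10 (2.00 times) followed. OS9 (1.14 times) and HSP90B1 (1.16 times) varied least.

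The first question was whether the members differed between the High and the Low dose of each extract. In Poria, 26 of 37 members were higher and 2 lower in High than in Low, against 38.4% of all tested genes called in either direction, 20% called higher and 18.4% called lower. The members' median log2 change was 0.24 and that of all tested genes was -0.00. In Glycyrrhiza, 14 members were higher and 13 lower, against 56.3% of all genes called (28.4% higher and 27.8% lower), and the median was 0.01 for the members and 0.01 for all genes. The 4 remaining extracts with replicates gave few calls. Atractylodis had 3 members higher (6.41% of all genes called, 3.39% higher) and Ginseng 2 (5.79%, 2.92% higher), while SDT (1.04%) and PMT (0.516%) had 0. At an unadjusted p under 0.05, 2 members passed in SDT and 3 in PMT, and the smallest adjusted p of a member was 0.267 and 0.327 by edgeR. DESeq2 also called 0 members in SDT and in PMT. The SDT count was 1 without Low replicate 2.

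**Figure D2:**
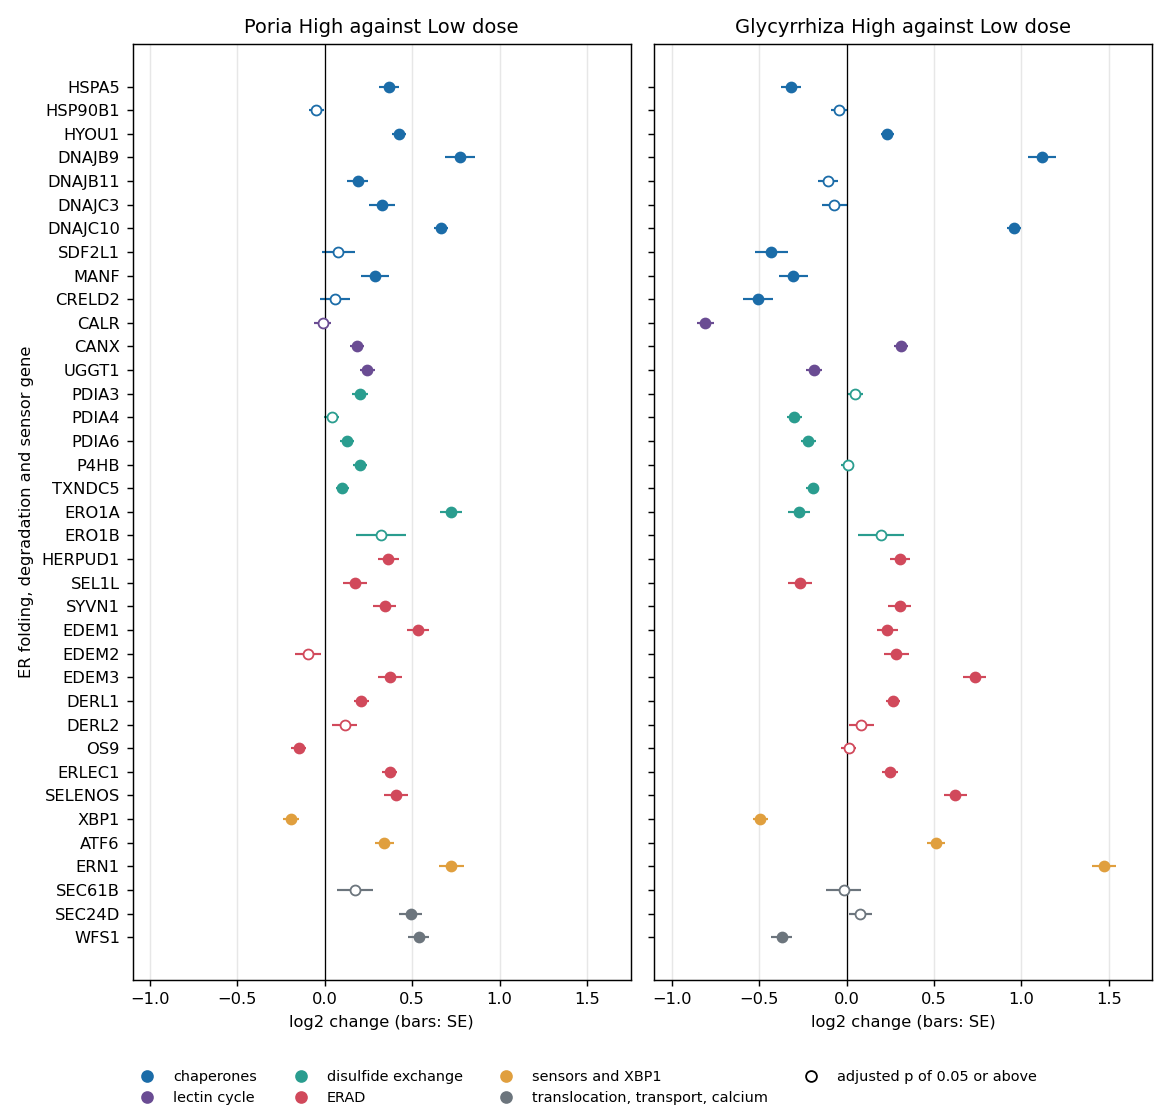
Log2 change between High and Low dose for the 37 tested genes, with the SE as bars and colour by role; open symbols have an adjusted p of 0.05 or above. In Poria most points lie right of 0, whereas in Glycyrrhiza the ERAD genes (red) lie mainly right and 4 of the 7 disulfide exchange genes (green) lie left, with ERO1B (0.20) right of 0.

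Of the 10 chaperones and their helpers, 7 were higher and 0 lower in Poria, where 20% of all genes were higher; HSP90B1 (-0.05), SDF2L1 (0.08) and CRELD2 (0.06) were not called. DNAJB9 (ERdj4), a J-domain partner of HSPA5, was at 17.4, 15.9 and 20.8 CPM in the Low libraries, 22.7, 19.6 and 26.4 in Medium and 30.1, 28.9 and 33.1 in High. Every High library lay above every Low library, and the log2 change was 0.77 (SE 0.09, adjusted p = 4.13e-10, n = 3 per group). DNAJC10 (ERdj5), a J-domain disulfide reductase, went from 154.3, 166.5 and 149.3 CPM to 240.1, 245.4 and 259.2, a change of 0.66 (SE 0.04, adjusted p = 9.22e-18). HYOU1, the large HSP70-like nucleotide exchange factor of HSPA5, went from 272.8, 276.7 and 273.5 CPM to 364.7, 369.4 and 370.4, a change of 0.42 (SE 0.04, adjusted p = 2.97e-12).

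HSPA5 itself was at 894.7, 997.1 and 1024.1 CPM in Poria Low and at 1108.7, 1346.3 and 1302.4 in Poria High, beside 921.3, 917.5 and 972.7 in vehicle. The High libraries did not overlap either group, and the log2 change from Low was 0.37 (SE 0.06, adjusted p = 9.88e-07). DNAJC3 (0.33), MANF (0.29) and DNAJB11 (0.19) were the other chaperone genes called higher, and for these 3 the High and Low libraries overlapped. HSP90B1 was at 1087.3, 1140.2 and 1137.5 CPM in Low and 989.9, 1134.6 and 1128.8 in High, a change of -0.05 with adjusted p = 0.408. SDF2L1 (0.08) and CRELD2 (0.06) were not called.

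In Glycyrrhiza 3 of these 10 genes were higher and 4 lower, where 28.4% of all genes were higher and 27.8% lower. DNAJB9 was at 19, 19.5 and 17.5 CPM in Low, 19.9, 19.4 and 20.6 in Medium and 38, 42.4 and 41.2 in High. The rise was therefore seen at the High dose, with a log2 change from Low of 1.12 (SE 0.08, adjusted p = 2.12e-16). Part of the gene's exons are shared on the opposite strand with PNPLA8 (3.49% of its exon bases) and THAP5 (6.45%), which changed by 0.91 and 0.34 in the same comparison, and the strand setting of the counting is not given in the sources used here. DNAJC10 went from 161.2, 155.6 and 159.2 CPM to 307.0, 319.6 and 297.1, a change of 0.96 (SE 0.04, adjusted p = 2.11e-24). HYOU1 rose by 0.23 (adjusted p = 1.49e-06).

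HSPA5 fell in the same libraries, from 1014.7, 993.1 and 944.9 CPM in Glycyrrhiza Low to 785.7, 796.4 and 783.8 in High. The change was -0.32 (SE 0.06, adjusted p = 4.78e-06), and all 3 High libraries were also below all 3 vehicle libraries. CRELD2, a small ER stress-induced factor with isomerase-like features, went from 25.8, 27.7 and 27.4 CPM to 18.9, 17.8 and 20.3, a change of -0.51 (SE 0.09, adjusted p = 2.09e-06). SDF2L1 (-0.43) and MANF (-0.31) were lower as well. HSP90B1 was at 1162.7, 1123.5 and 1111.7 CPM in Low and 1069.9, 1133.1 and 1094.8 in High, a change of -0.04 with adjusted p = 0.42.

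Of the 3 lectin-cycle genes, which retain glycoproteins until they fold, 2 were higher with Poria and 0 lower, where 20% of all genes were higher. The 2 higher genes were UGGT1, the folding sensor that re-glucosylates misfolded glycoproteins (0.24), and CANX, the membrane lectin calnexin (0.18). CALR, the soluble lectin calreticulin, did not pass the test in Poria (-0.01, adjusted p = 0.874). In Glycyrrhiza, CALR showed the greatest fall of any member. It was at 1240.9, 1208.7 and 1183.7 CPM in Low, 1231.2, 1148.7 and 1188.9 in Medium and 683.1, 683.6 and 708.0 in High. No High library came near the others, and the High dose stood at 0.571 of Low (log2 change -0.81, SE 0.05, adjusted p = 2.59e-18). CANX moved the other way in those libraries, from 911.5, 912.2 and 906.6 CPM to 1102.7, 1168.0 and 1120.6 (0.31, adjusted p = 7.19e-09), and UGGT1 fell by 0.19.

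Of the 7 disulfide exchange genes, 5 were higher and 0 lower in Poria (20% of all genes higher), and 0 were higher and 4 lower in Glycyrrhiza (27.8% of all genes lower). ERO1A, the oxidase that recharges the disulfide isomerases, was at 125.7, 131.4 and 120.4 CPM in Poria Low, 160.8, 180.1 and 179.7 in Medium and 186.8, 227.2 and 209.7 in High. This was a log2 change of 0.72 (SE 0.06, adjusted p = 3.54e-13) without overlap between doses High and Low. In Glycyrrhiza it went from 132.9, 135.1 and 131.5 CPM to 113.9, 113.8 and 103.0, a change of -0.27 (adjusted p = 0.000218).

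Among the isomerases, P4HB (0.20), PDIA3 (0.20), PDIA6 (0.13) and TXNDC5 (0.10) were higher in Poria, and PDIA4 (0.04, adjusted p = 0.514) was not called. PDIA4 (-0.30), PDIA6 (-0.22) and TXNDC5 (-0.19) were lower in Glycyrrhiza, while P4HB (0.01) and PDIA3 (0.05) did not pass the test. A pseudogene close in sequence to PDIA3, PDIA3P1, had a mean of 9.85 CPM, so a small part of the PDIA3 reads may be assigned to it or from it. TXNDC5 shares 60.6% of its exon bases on the same strand with BLOC1S5-TXNDC5, which had a mean of 1.07 CPM beside 474 for TXNDC5. BLOC1S5-TXNDC5 changed by -8.87 in Poria and 0.60 in Glycyrrhiza, not called in either, and reads may be assigned between the 2 genes. ERO1B, at 3.54 to 5.68 CPM in Poria Low and High, was not called in either extract (0.32 in Poria and 0.20 in Glycyrrhiza).

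The products of the ERAD genes recognise misfolded proteins and carry them back to the cytosol for degradation. In Poria 8 of 11 tested were higher and 1 lower, and in Glycyrrhiza also 8 were higher and 1 lower, where 20% and 28.4% of all genes were higher. EDEM1, a mannosidase-like protein that marks glycoproteins for disposal, was at 35.8, 40.1 and 39.8 CPM in Poria Low and 50.6, 57.5 and 59.1 in High (0.53, SE 0.06, adjusted p = 1.48e-09). HERPUD1, a membrane scaffold of the degradation complex, was at 84.7, 80.6 and 90.4 CPM in Low and 112.4, 98 and 118.1 in High (0.36, SE 0.06, adjusted p = 2.04e-06). SELENOS (0.41), EDEM3 (0.37), ERLEC1 (0.37), SYVN1 (0.34), DERL1 (0.21) and SEL1L (0.17) were also higher. OS9, a lectin of the degradation complex, was lower (-0.15), and EDEM2 (-0.10) and DERL2 (0.11) were not called.

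In Glycyrrhiza the greatest change of an ERAD gene was that of EDEM3, an EDEM-family mannosidase. It was at 37.0, 39.2 and 36.2 CPM in Low and 63.1, 66.7 and 56.4 in High, a change of 0.73 (SE 0.07, adjusted p = 5.62e-13). SELENOS, a selenoprotein of the ER membrane that binds derlins, went from 23.3, 23.0 and 23.2 CPM to 33.7, 33.8 and 40.0 (0.62, SE 0.06, adjusted p = 1.69e-11). HERPUD1 went from 84.3, 78.3 and 79.8 CPM to 101.6, 100.8 and 97.1 (0.31, SE 0.06, adjusted p = 1.43e-05). The ubiquitin ligase gene SYVN1 (0.30), EDEM2 (0.28), DERL1 (0.26), ERLEC1 (0.25) and EDEM1 (0.23) were higher too. SEL1L, which encodes the partner of SYVN1, was lower (-0.27), and OS9 (0.01) and DERL2 (0.08) were not called. SYVN1 shares 7.24% of its exon bases with FAU on the same strand and 6.48% with MRPL49 on the other; in Glycyrrhiza these neighbours changed by -0.02 and -0.29.

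Among the sensors, ERN1 showed the greatest rise of any member in Glycyrrhiza. It was at 14.8, 14.4 and 14.4 CPM in Low, 15.9, 15.4 and 15.1 in Medium and 38.3, 41.5 and 41.5 in High. The High dose was 2.78-fold above Low (log2 change 1.47, SE 0.07, adjusted p = 1.5e-23). In Poria it was at 13.3, 14.4 and 13.6 CPM in Low, 19.3, 18.4 and 19 in Medium and 22.7, 23.4 and 22.2 in High, so that the 3 doses did not overlap (High against Low 0.72, SE 0.07, adjusted p = 3.96e-11). ATF6 rose in both extracts, from 42.9, 45.0 and 41.5 CPM to 54.8, 52.9 and 56.2 in Poria (0.34, SE 0.05, adjusted p = 1.28e-06). In Glycyrrhiza ATF6 went from 45.0, 43.0 and 47.0 CPM to 64.7, 66.6 and 60.9 (0.51, SE 0.05, adjusted p = 9.72e-12).

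Total XBP1 transcript fell in both. In Poria it was at 381.3, 369.6 and 407.9 CPM in Low and 340.2, 321.3 and 351.1 in High (-0.19, SE 0.04, adjusted p = 0.000387). With only the Poria High and Low libraries in the fit, the change was -0.20 and its adjusted p 0.0589. In Glycyrrhiza XBP1 went from 367.9, 373.4 and 350.9 CPM to 261.9, 265.1 and 248.7 (-0.49, SE 0.04, adjusted p = 2.7e-13), below all vehicle libraries (379.4, 365.3 and 386.9).

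The last 3 members serve translocation, export and calcium balance. WFS1, the ER calcium regulator wolframin, was at 77.2, 76.5 and 81.9 CPM in Poria Low and 122.6, 103.7 and 115.5 in High (0.54, SE 0.06, adjusted p = 4.42e-10). In Glycyrrhiza it fell from 83.7, 80.9 and 84.5 CPM to 67.8, 59.7 and 65.1 (-0.37, SE 0.06, adjusted p = 6.6e-07). SEC24D, a cargo-binding coat protein of ER export vesicles, was at 85.4, 103.9 and 92.4 CPM in Poria Low and 120.9, 135.6 and 139.1 in High (0.49, SE 0.07, adjusted p = 4.38e-08), and was not called in Glycyrrhiza (0.08). SEC61B, a subunit of the translocation channel, passed the test in neither extract.

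**Figure D3:**
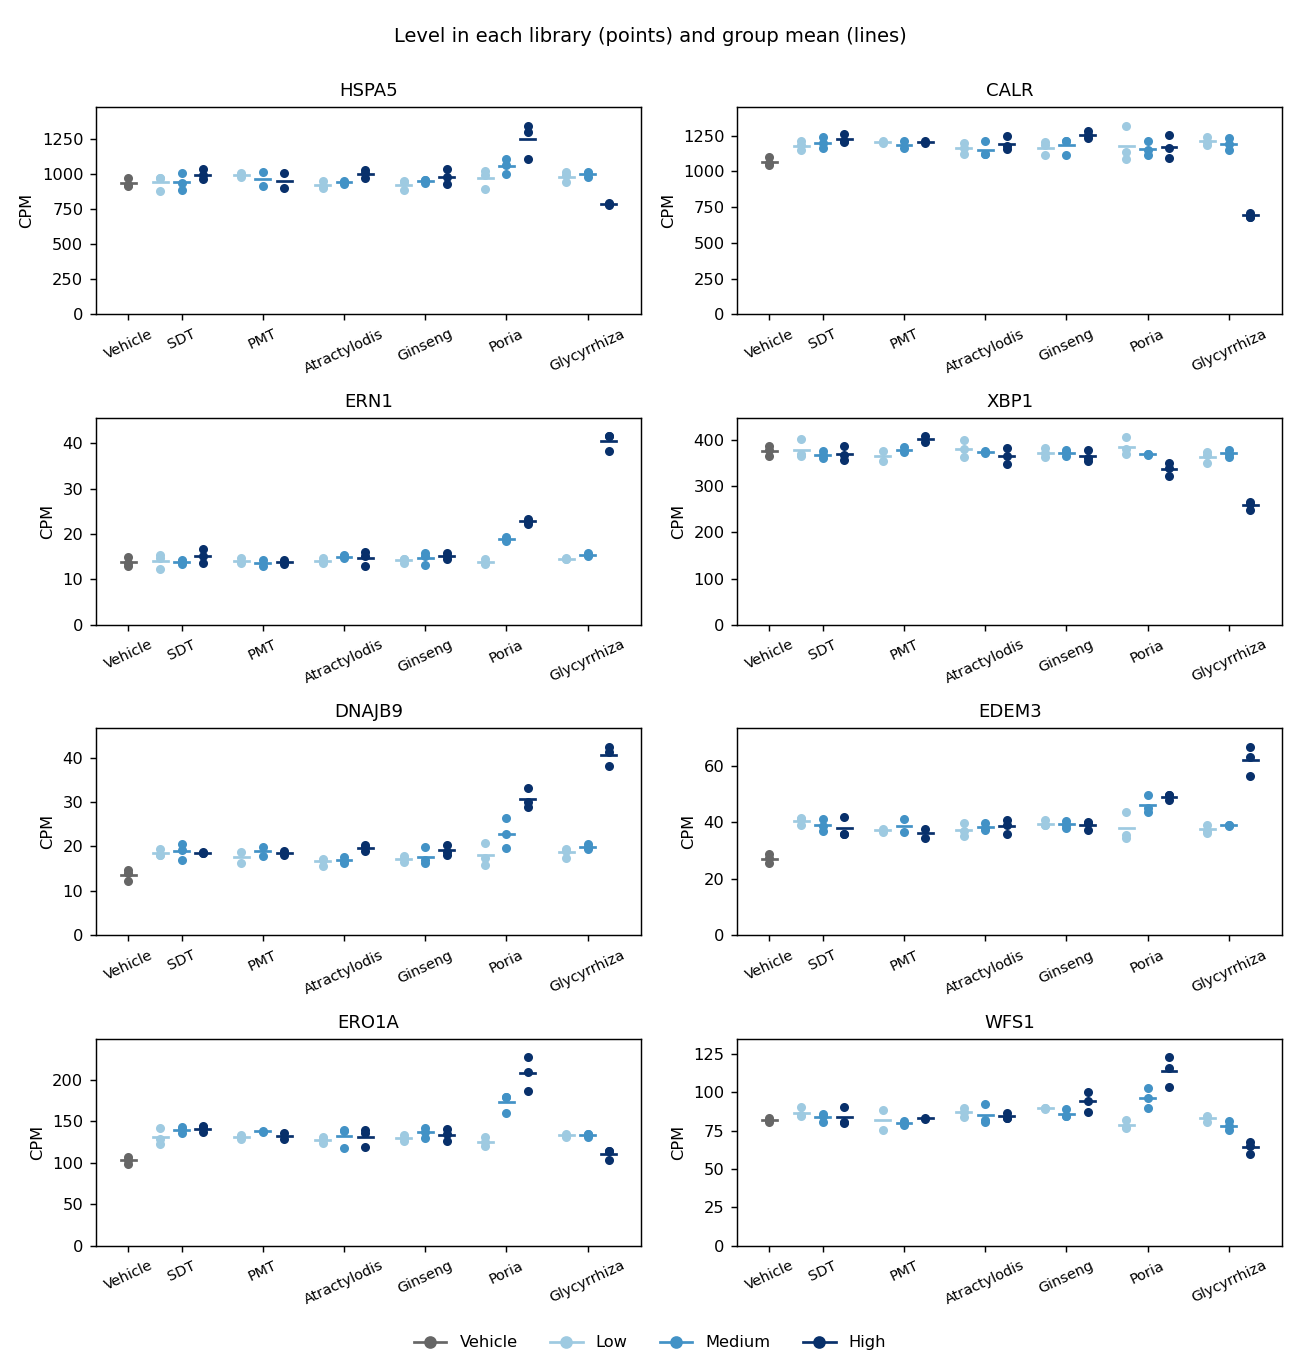
CPM of 8 members in each library (points) with the group mean (line), for vehicle and for the Low, Medium and High doses of the 6 extracts with replicates; each axis starts at 0. HSPA5, ERO1A and WFS1 have their highest mean in Poria High and their lowest in Glycyrrhiza High (HSPA5, WFS1) or vehicle (ERO1A), while ERN1, DNAJB9 and EDEM3 are highest in Glycyrrhiza High.

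Set side by side, the 2 extracts shared no library, and 13 of 37 members (35.1%) were higher at High dose in both, against 9.72% of all tested genes. These were HYOU1, DNAJB9, DNAJC10, CANX, HERPUD1, SYVN1, EDEM1, EDEM3, DERL1, ERLEC1, SELENOS, ATF6 and ERN1. Another 8 (21.6%, against 4.6% of all genes) were higher in Poria and lower in Glycyrrhiza, namely HSPA5, MANF, UGGT1, PDIA6, TXNDC5, ERO1A, SEL1L and WFS1. No member was lower in Poria and higher in Glycyrrhiza, a pattern of 3.63% of all genes. XBP1 was lower in both.

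The difference between the 2 dose changes was tested directly, and 26 members differed. The change in Glycyrrhiza was more positive for 6 and more negative for 20, against 45.6% of all genes differing in either direction. The median difference was -0.19 for the members and 0.00 for all genes. Against Ginseng, which carries the same set code, the dose change of Glycyrrhiza was more positive for 12 members and more negative for 13. There 45.4% of all genes differed in either direction, and the median difference was 0.04 for the members and 0.01 for all genes. The shares of all genes by direction are not given for these 2 comparisons. Against Poria, the greatest differences were those of ERO1A (-1.0, SE 0.09, adjusted p = 4.79e-13), WFS1 (-0.91, adjusted p = 1.99e-12) and CALR (-0.80, adjusted p = 8.1e-13). The change of ERN1 was 0.75 more positive in Glycyrrhiza (SE 0.10, adjusted p = 2.24e-08), and those of EDEM2 (0.38), EDEM3 (0.36), DNAJB9 (0.34), DNAJC10 (0.29) and OS9 (0.16) were also more positive.

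**Figure D4:**
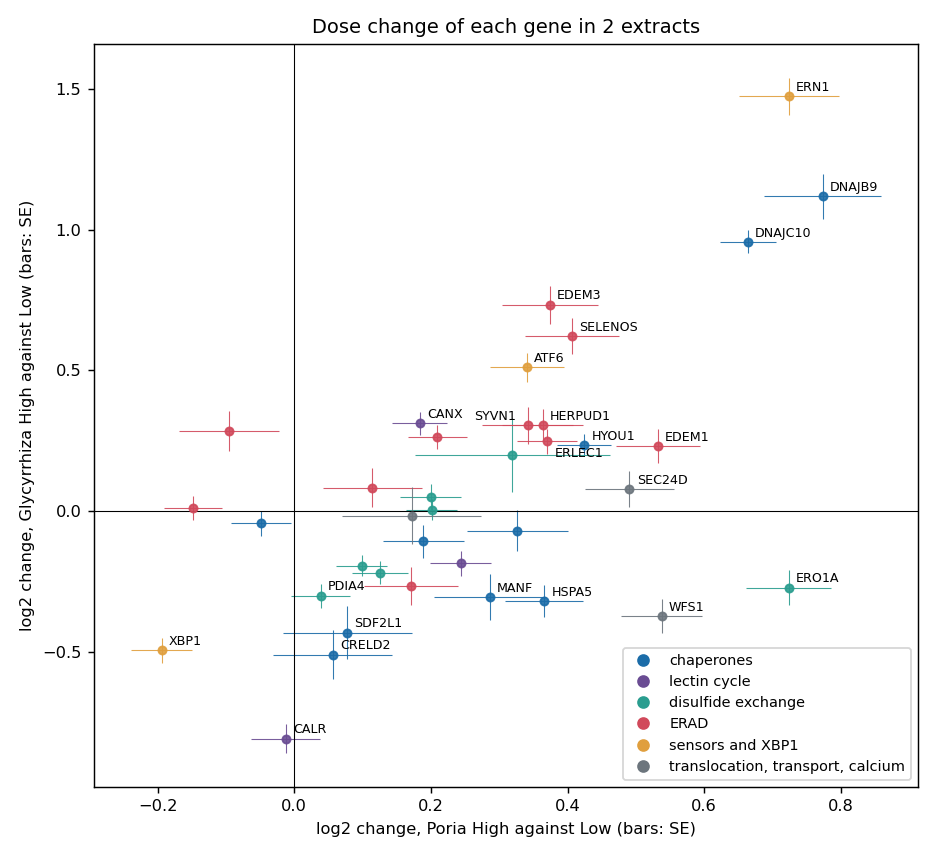
Log2 change between High and Low dose of each of the 37 tested members in Poria (horizontal) and Glycyrrhiza (vertical), with SE bars and colour by role. ERN1, DNAJB9 and DNAJC10 lie at the upper right, ERO1A, WFS1 and HSPA5 at the lower right, and CALR at the bottom near 0 on the horizontal axis.

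The genes with an ER stress element were called in both directions in each of the 2 extracts. Of the 8 members called in opposite directions in the 2 extracts, HSPA5 alone held any of the motifs searched. In Glycyrrhiza, 1 of the 7 (CANX) was higher and 4 (HSPA5, CRELD2, CALR and XBP1) were lower, with a median log2 change of -0.32, while the 27 other members with a window had 12 higher and 9 lower and a median of 0.01. In Poria, 2 of the 7 (HSPA5 and CANX) were higher and XBP1 was lower, with a median of 0.06, beside 21 higher and 1 lower and a median of 0.33 among the others. The percentages of all genes called are those given above, and no test was made of these small groups. HERPUD1 and HYOU1, with the second form, rose in both extracts, and SDF2L1, with the same form, fell in Glycyrrhiza.

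Medium was next compared with Low within Poria and within Glycyrrhiza, and the difference between these 2 changes was not tested. In Poria 15 members were already higher and 1 (OS9) lower than at Low, against 15.5% of all genes called and 8.16% called higher. ERO1A (0.46, adjusted p = 2.16e-07), ERN1 (0.46, adjusted p = 7.36e-06), DNAJC10 (0.40, adjusted p = 4.13e-10) and EDEM1 (0.37, adjusted p = 1.91e-05) led. Fitted on the Poria Medium and Low libraries alone, 5 members were called. In Glycyrrhiza 0 members were higher and OS9 was lower (-0.15, adjusted p = 0.0364), against 3.56% of all genes, a count that ran from 0 to 3 over other settings and was 0 without Medium or Low replicate 2 or 3. Over the 3 doses, the group means of 28 members rose in order from Low to High in Poria and those of 4 fell in order, beside 31.1% and 30.6% of all tested genes. In Glycyrrhiza 11 rose and 6 fell in order, beside 24.3% and 22.4%.

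In Atractylodis the genes called higher at High dose were TXNDC5 (0.16, adjusted p = 0.00437), DNAJC10 (0.14, adjusted p = 0.0299) and CANX (0.13, adjusted p = 0.0492). TXNDC5, a disulfide isomerase with several thioredoxin domains, was at 464.7, 458.8 and 461.0 CPM in Low and 522.0, 508.3 and 516.5 in High. In Ginseng they were DNAJC10 (0.13, adjusted p = 0.04) and TXNDC5 (0.13, adjusted p = 0.0346). Both counts are near the background and fell to 0 when only the groups compared entered the fit. The Atractylodis count was 1 without High replicate 2 or Low replicate 3, and the Ginseng count was 0 or 1 without any of its 6 libraries. The dose change in Poria exceeded that in Atractylodis, which carries the same set code, for 17 members and was below it for 0, against 19% of all genes with a difference called and 10.3% with a more positive change in Poria. ERO1A (0.68), ERN1 (0.67), WFS1 (0.58) and ERO1B (0.56) had the greatest differences.

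Against vehicle, members were called at the Low dose too, more of them higher than lower in each extract. The percentages beside the counts against vehicle are of all genes called in either direction, and the shares by direction are not given. The direction is therefore not read as particular to the members. The counts of members higher and lower at Low were 13 and 4 in SDT (35.9% of all genes called), 13 and 4 in PMT (31.1%), 12 and 1 in Poria (19.2%), 11 and 4 in Atractylodis (26.9%), 15 and 3 in Glycyrrhiza (29.7%) and 12 and 4 in Ginseng (33.4%). The 6 comparisons share the 3 vehicle libraries, and the set code differs between vehicle and every extract, so extract, code and the vehicle group cannot be told apart. HYOU1, DNAJB9, CANX, UGGT1, ERO1A, HERPUD1, SEL1L, SYVN1, EDEM3 and SEC24D were called higher in all 6 extracts at Low, and TXNDC5 was called lower, beside 6.5% and 6.34% of all tested genes. The mitochondrial share of counts also differed, at 13.4 to 15.2% in vehicle against, for example, 17.7 to 21.3% in SDT Low, and its part in these results was not tested beyond leaving mitochondrial genes out, which moved no count by over 1.5 times.

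EDEM3 was at 28.7, 25.5 and 27.2 CPM in vehicle and at 34.5 to 43.7 in every Low library of the 6 extracts, with log2 changes of 0.46 to 0.58. DNAJB9 was at 14.7, 14 and 12.3 CPM in vehicle and 15.7 to 20.8 in the Low libraries, with changes of 0.28 to 0.45. ERO1A was at 106.7, 99.1 and 103.5 CPM in vehicle and 120.4 to 142.6 in the Low libraries, with changes of 0.29 to 0.37. For each of these genes no Low library overlapped vehicle. They are among the members called higher in all 6 extracts at Low, so this separation is no separate support. The share of all genes separated in this way was not counted. ERN1, by contrast, had changes of -0.00 to 0.08 at Low, with 13, 14.9 and 13.5 CPM in vehicle and 12.2 to 15.3 in the Low libraries, and the groups overlapped.

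At Medium the counts higher and lower were 13 and 5 in SDT (36% of all genes called), 15 and 4 in PMT (29.7%), 24 and 2 in Poria (38.6%), 11 and 4 in Atractylodis (28.3%), 17 and 3 in Glycyrrhiza (34.9%) and 15 and 4 in Ginseng (29.9%). At High they were 16 and 3 in SDT (34.2%), 16 and 3 in PMT (29.2%), 28 and 3 in Poria (51.1%), 15 and 3 in Atractylodis (34%), 17 and 10 in Glycyrrhiza (61.3%) and 16 and 4 in Ginseng (36.3%). HYOU1, DNAJB9, CANX, HERPUD1, SYVN1, EDEM3 and SEC24D were called higher in all 6 extracts at High, beside 5.43% of all genes. In PMT, whose groups have 2 libraries, the count at High was 8 without High replicate 2, that at Medium 10 without Medium replicate 2, 12 without Medium replicate 3 and 11 without vehicle replicate 2, and that at Low 11 without Low replicate 2. The Poria Low count was 6 without vehicle replicate 2, 8 without vehicle replicate 1, 7 without Low replicate 2 and 5 when only Poria Low and vehicle entered the fit, and the Ginseng Medium count was 12 without Medium replicate 2.

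**Figure D5:**
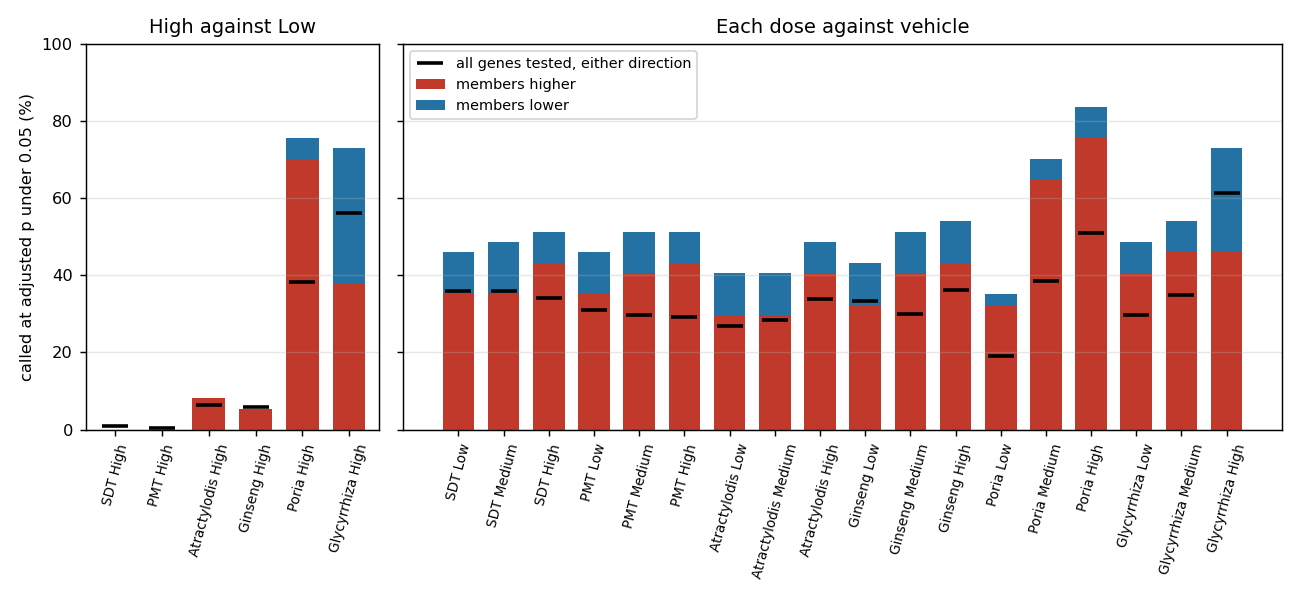
Percentage of the 37 tested members called higher (red) or lower (blue) in each comparison, with the percentage of all 16284 tested genes called in either direction (black line), for High against Low dose (left) and each dose against vehicle (right). Poria High and Glycyrrhiza High stand out on the left, where Poria is almost all red and Glycyrrhiza divided.

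Genes around the members were read from lists of related pathways. Of all tested genes, 20% were higher and 18.4% lower in Poria High than Low, and 28.4% and 27.8% in Glycyrrhiza. In the list of the PERK arm and integrated stress response, 11 of 11 tested genes were higher in Glycyrrhiza High than Low, with a median log2 change of 1.70 beside 0.01 for all genes. NUPR1, a stress-induced chromatin protein (2.99, adjusted p = 2.79e-29), DDIT3, which encodes the transcription factor CHOP (2.45, adjusted p = 4.23e-25), and ASNS, asparagine synthetase (2.44, adjusted p = 3.03e-34), led, and ATF4 rose by 0.80. The gene of the sensor itself, EIF2AK3, changed by 0.13 (adjusted p = 0.0109). In Poria 6 of the 11 were higher and 3 lower. PPP1R15A, the stress-induced phosphatase subunit (0.98, adjusted p = 7.16e-11), ATF3 (0.68) and EIF2AK3 (0.42) were higher, NUPR1 (-1.19, adjusted p = 7.28e-10) and ATF4 (-0.22) were lower, and DDIT3 was not called (0.20, adjusted p = 0.18).

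Of 19 genes of ER-to-Golgi transport, 13 were higher and 0 lower in Poria, where 20% of all genes were higher. In Glycyrrhiza 3 were higher and 8 lower, beside 28.4% and 27.8% of all genes. SEC23B, a coat protein of ER export vesicles, rose in both (0.44 and 0.42), and COPB2, a coat protein of the return route, fell in Glycyrrhiza (-0.35). Of 22 genes of the translocon, signal peptidase and oligosaccharyltransferase, 12 were higher and 0 lower in Poria, led by the signal peptidase subunit SPCS3 (0.53). In Glycyrrhiza 12 of them were higher and 1 lower, led by the translocon-associated SSR3 (0.37). Of 19 other ERAD genes, 9 were higher and 1 lower in Poria and 8 higher and 2 lower in Glycyrrhiza. UFM1, a ubiquitin-like modifier, was higher in both (0.38 and 0.45). In Glycyrrhiza 57.9% of the transport, 59.1% of the translocon and 52.6% of the other ERAD genes were called in either direction. These shares are near the 56.3% of all genes.

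Of 23 other UPR regulators and ER stress proteins, 10 were higher and 2 lower in Poria and 12 higher and 4 lower in Glycyrrhiza. KDELR3, a receptor that returns escaped ER proteins, led in Poria (0.61, adjusted p = 9.33e-11). DNAJC1 (0.74) and SIL1 (0.64), a nucleotide exchange factor of HSPA5, led in Glycyrrhiza. All 12 genes of a list of cytosolic heat shock proteins, which also holds the mitochondrial chaperone genes HSPD1 and HSPE1, fell in Glycyrrhiza, among them HSP90AA1 (-0.76, adjusted p = 1.82e-20) and HSPA8 (-0.71, adjusted p = 1.04e-18). In Poria 3 of the 12 were higher and 3 lower, with HSPA8 at 0.40. The background percentages are those of High against Low in each extract given above.

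Other transcripts moved in the same libraries. The counts of genes called here stand beside 38.4% of all tested genes in Poria (20% higher, 18.4% lower). In Glycyrrhiza 56.3% of all tested genes were called (28.4% higher, 27.8% lower). The summed level of the 10 hepatocyte markers was 61700 to 62500 CPM in Glycyrrhiza Low and 45100 to 47700 in High, with 1 gene higher and 8 lower, and 61800 to 65200 in Poria Low and 68400 to 70900 in High, with 3 higher and 5 lower. The summed leukocyte and macrophage list, nearly all of it LYZ, was 1210 to 1330 CPM in Poria Low and 1880 to 1980 in High, with PTPRC at 0 throughout, and 1270 to 1370 in Glycyrrhiza Low and 976 to 1060 in High. The summed fibroblast list was 6.31 to 9.09 CPM in Poria Low and 11 to 11.9 in High, with 1 of 2 tested genes higher, and 6.19 to 6.72 in Glycyrrhiza Low and 2.45 to 2.94 in High, with both tested genes lower. The summed endothelial list was 2.2 to 2.65 CPM in Poria Low and 1.79 to 2.05 in High, with no tested gene called, and 2.63 to 2.98 in Glycyrrhiza Low and 1.66 to 2.27 in High, with 1 of 2 tested genes lower. The mitochondrial share was 15.8 to 17.5% in Poria Low and 19.7 to 22.3% in High, and 15.1 to 17.0% in Glycyrrhiza Low and 17.8 to 18.4% in High. The part of these shifts in the members' changes was not tested, and in bulk RNA fewer cells of a kind and less RNA per cell cannot be told apart. Together the members took 1.02 to 1.12% of counts in Poria High and 1.05 to 1.06% in Glycyrrhiza High, beside 1.07 to 1.09% in vehicle.

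Angelica and Paeonia had 1 library per dose and gave no test. In Angelica 0 of 37 members differed by over 1.5-fold between High and Low, against 9.11% of all genes, and the log2 ratios ran from -0.32 to 0.16. In Paeonia 1 member passed 1.5-fold, against 18.2% of all genes. This was ERN1, at 14.2 CPM in Low, 15.3 in Medium and 25.5 in High, a log2 ratio of 0.84. ERO1A (0.57) and DNAJB9 (0.54) had the next highest ratios and SDF2L1 (-0.52) and HSPA5 (-0.47) the lowest. HSPA5 was at 903.6 CPM in Paeonia Low, 866.9 in Medium and 652.4 in High. At Medium 0 members passed 1.5-fold in either extract (7.04% and 8.86% of all genes). These ratios compare single libraries and have no replicate check.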

How the data were processed

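Polyadenylated RNA of HepG2 cells was made into directional MGIEasy libraries and sequenced as 100 bp paired reads on an MGIseq instrument, per the labels' protocols. Per the submitters' processing notes, FastQC 0.11.9, Trim Galore 0.6.5, STAR 2.7.3a and RSEM 1.3.3 were used with GRCh38 (hg38); the annotation release and strand setting are not given in the sources used here. The authors deposited RSEM expected counts per gene, not normalised (23.4% of nonzero values are not whole at a tolerance of 0.005). Of 270 columns, the 60 of these samples were used and 210 were not.

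Expected counts were rounded. Genes were kept by filterByExpr (16284 of 60675) before testing in edgeR 4.0.16 under R 4.3.3 (TMM, quasi-likelihood, Benjamini-Hochberg over all genes kept), in a model with a coefficient per group over 54 libraries of 19 groups, for 29 comparisons. Depth was 19057230 to 33233215 counts per library and the common dispersion 0.00317, a coefficient of variation of 5.63%. The single libraries of Angelica and Paeonia gave log2 ratios of CPM with a prior count of 2. Gene positions and exon lengths came from GENCODE 29, promoter windows from RefSeq. Code was tested on simulated counts.

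Members, lists and tests were chosen with earlier results of these data known. Members with full values are the 8 with the greatest absolute change among those called, plus HSPA5, HSP90B1, HERPUD1, DNAJB9, XBP1, ATF6 and ERN1; from related lists the top 3 called genes plus DDIT3 and ATF4 could be named. EIF2AK3, the genes that overlap members, and the members named beyond that rule were chosen after their values were seen. Replicates were counted as separate samples, since no pair of libraries agreed within sampling noise. Alternatives were DESeq2 1.42.0, RLE size factors, no filter, only the groups compared, a replicate block, mitochondrial genes left out, and each library left out.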

Additional observations from a re-analysis of the deposited data

Results flagged for a closer look

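For 8 members the dose change of Poria and that of Glycyrrhiza were both called and had opposite signs, and the difference between the changes passed edgeR's quasi-likelihood test (Glycyrrhiza change minus Poria change, log2, 3 libraries per group). Of all tested genes, 4.6% were called higher in Poria and lower in Glycyrrhiza and 3.63% the other way, before any test of the difference. The differences were -1.0 for ERO1A, -0.91 for WFS1, -0.69 for HSPA5, -0.59 for MANF, -0.44 for SEL1L, -0.43 for UGGT1, -0.34 for PDIA6 and -0.29 for TXNDC5. Their adjusted p-values ran from 4.79e-13 for ERO1A to 0.000246 for SEL1L. The members were picked by these same calls, so the p-values describe them and are no separate support. For HSPA5, UGGT1, PDIA6, ERO1A and WFS1 the 3 High libraries did not overlap the 3 Low libraries in either extract, while for MANF, TXNDC5 and SEL1L they overlapped in Poria. The share of all genes without such overlap was not counted, so this separation is not read as particular to these members. The 2 extracts carry different set codes, which the dose changes within each extract do not cross.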

How the results depend on the processing

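RLE size factors and leaving out mitochondrial genes moved none of the 29 member counts by over 1.5 times, and neither did DESeq2 or the replicate block outside Glycyrrhiza Medium against Low. Without a filter on low counts the counts were 1 for Atractylodis High against Low, 0 for Ginseng High against Low and 0 for Glycyrrhiza Medium against Low. With only the groups compared in the fit they were 0, 0 and 2 for the same comparisons, 5 for Poria Medium against Low and 5 for Poria Low against vehicle; XBP1 in Poria High against Low then had an adjusted p of 0.0589. DESeq2 gave 2 for Glycyrrhiza Medium against Low. The replicate number as a block gave 3 for that comparison and changed no other count by over 1.5 times; same-numbered libraries correlated at -0.148 to 0.137, never all over 0.1 in a comparison, so they share only a number. Without mitochondrial genes Atractylodis Medium against vehicle had 10 members higher and 6 lower. The cause of these shifts was not tested.

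Leaving out each library in turn, the counts ran from 27 to 27 in Glycyrrhiza High against Low, 23 to 29 in Poria High against Low, 1 to 3 in Atractylodis High against Low, 0 to 1 in Ginseng High against Low, 0 to 1 in SDT High against Low (1 without Low replicate 2) and 0 to 1 in Glycyrrhiza Medium against Low. Against vehicle they ran from 8 to 18 in PMT High, 10 to 16 in PMT Medium, 11 to 17 in PMT Low, 6 to 15 in Poria Low and 12 to 18 in Ginseng Medium. A PMT group left with 1 library is assumed to vary like the other groups. Of 25 named changes, 0 reversed under any setting. Most of these were picked as the greatest called changes in the same libraries, so a reversal was unlikely from the start. A sign change of a gene not called in either fit was not counted as a reversal. The SE of the log2 change in Poria was 0.14 for ERO1B, the tested member with the lowest level per kilobase, against 0.04 for P4HB; counting error and replicate spread were not separated.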
